A study of Homo sapiens with 16 samples.

Results

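The response to 24 h of CCG-222740 was compared between UACC62P, a human melanoma line, and UACC62R, the vemurafenib-resistant line made from it. The quantity measured for each gene was the change from 0 to 24 h in UACC62R minus the change from 0 to 24 h in UACC62P, on a log2 scale, and is called the line difference of response below. A negative line difference means that the change in UACC62R was more downward, or less upward, than in UACC62P, whatever the levels of the lines. The 4 groups needed for it took 8 of the 16 libraries analysed, chosen by line and time from the sample labels, and 18635 genes had enough reads to be tested.

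CCG-222740 is known as an inhibitor of transcription through MRTFA and MRTFB, which are coactivators of serum response factor (SRF). MRTF proteins are held in the cytoplasm by monomeric actin and enter the nucleus when actin polymerises, where they and SRF switch on genes of the actin cytoskeleton. YAP and TAZ, which act through the TEAD factors, respond to the same tension and share targets with MRTF and SRF, such as CCN1 and CCN2. In melanoma, resistance to BRAF inhibitors is often accompanied by loss of melanocyte lineage genes and by gain of actin and YAP/TAZ target expression.

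UACC62P at 0 h is the untreated parental line. UACC62R at 0 h is the line selected over 2 months in vemurafenib (2 uM), which inhibits mutant BRAF, and then kept in that drug. The 24 h groups are the same lines in 10 uM CCG-222740. The labels of all 8 libraries give DMEM with 10% FBS, and no library used here received vehicle alone, so that effects of the compound, of its vehicle and of culture time cannot be told apart. Vemurafenib is named in the label texts of the 0 h libraries and not in those of the 24 h libraries, so a change of vemurafenib in UACC62R cannot be told apart from the compound. The label texts differ as a set between the 0 h and 24 h libraries, and so time and any separate preparation cannot be told apart either. Each group had 2 libraries. Whether these came from separate cultures is not in the labels, and each p-value therefore measures spread between these samples alone, which may be technical.

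Between 28.2 and 32.6 M reads per library were counted in genes (median 30.2 M), and mitochondrial genes took 2.0 to 3.29% of them. Levels are given as CPM, that is, read counts scaled to the library total and by TMM within the 8 libraries, which allows one gene to be compared between libraries but not different genes with each other. The lines differed widely in lineage markers at 0 h. SOX10, which specifies the melanocyte lineage, stood at a group mean of 852 CPM in UACC62P and 26.2 CPM in UACC62R at 0 h, and the pigment cell antigen MLANA at 129 and 0.484 CPM. The receptor kinase AXL, a marker of dedifferentiated melanoma, stood at 3.3 CPM in UACC62P and 249 CPM in UACC62R. Of the markers of other cell types, CDH1, PECAM1, CD3E, MS4A1 and HBB had no read in any of the 8 libraries. ESRP1, an epithelial splicing factor, stood at 11.1 CPM in UACC62P and 0.134 CPM in UACC62R at 0 h. RNA came from whole cultures, in which fewer cells of a kind and less RNA per cell cannot be told apart.

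The line difference of response passed the test for 38 genes, which is 0.204% of the genes tested (edgeR's quasi-likelihood test, Benjamini-Hochberg adjusted p under 0.05, n = 2 against 2 in each line). It was positive, with a higher response in UACC62R, for 12 genes (0.0644%) and negative for 26 (0.14%). The absolute line difference had a median of 1.11 log2 units over the 38 genes, and it passed 1 log2 unit for 26 of them, 9 positive and 17 negative. The same fit called 325 genes higher and 212 lower at 24 h in UACC62P (1.74% and 1.14% of genes, 2.88% together), and 1094 higher and 1465 lower in UACC62R (5.87% and 7.86%, 13.7% together). Same-numbered libraries of the 4 groups deviated together, and in a fit blocked on replicate number (called the block below) the line difference passed for 746 genes (4%), 288 positive (1.55%) and 458 negative (2.46%). With the block, 1146 genes were higher and 1099 lower in UACC62P (6.15% and 5.9%, 12% together), and 2098 higher and 2573 lower in UACC62R (11.3% and 13.8%, 25.1% together). All 38 genes also passed with the block. Without the block the count rested on single libraries, and leaving one out lowered it to 25 (UACC62P at 0 h, replicate 1), 14 (UACC62P at 0 h, replicate 2), 13 (UACC62R at 0 h, replicate 1), 4 (UACC62R at 0 h, replicate 2), 0 (UACC62P at 24 h, replicate 1; 1396 genes at an unadjusted p under 0.05) and 1 (UACC62P at 24 h, replicate 2). It was 41 and 112 without replicate 1 and replicate 2 of UACC62R at 24 h. With library size in place of TMM the split was 19 positive and 26 negative. DESeq2, run as an alternative, called 260 genes (1.4%). In the edgeR fit without the block, 1915 of the 18635 genes had an unadjusted p under 0.05.

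The lines shared much of the direction of their responses. Across the 11296 genes whose mean log2 CPM reached 2, the log2 fold changes of the lines, which have no library in common, had a Pearson correlation of 0.63, given as a description because genes are not independent replicates. The median absolute response over these genes was 0.14 log2 units in UACC62P and 0.20 in UACC62R. Of the 38 genes, 21 fell in UACC62R and did not pass the test in UACC62P, and 8 rose in UACC62R and did not pass in UACC62P. MEF2C and TENT5C fell in UACC62P and rose in UACC62R. MT2A and SLC7A11 rose in both lines, by a smaller ratio in UACC62R. CCN1 and ACTB fell in both, by more in UACC62R, and CCN3 fell in both, by less in UACC62R. F2RL2 rose in UACC62P and PHACTR1 fell in UACC62P, and neither passed in UACC62R. With the block, 285 of the 746 genes fell in UACC62R only, 159 rose in UACC62R only, and 46 passed in opposite directions in the lines (24 lower in UACC62P and higher in UACC62R, 22 the reverse).

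**Figure D1:**
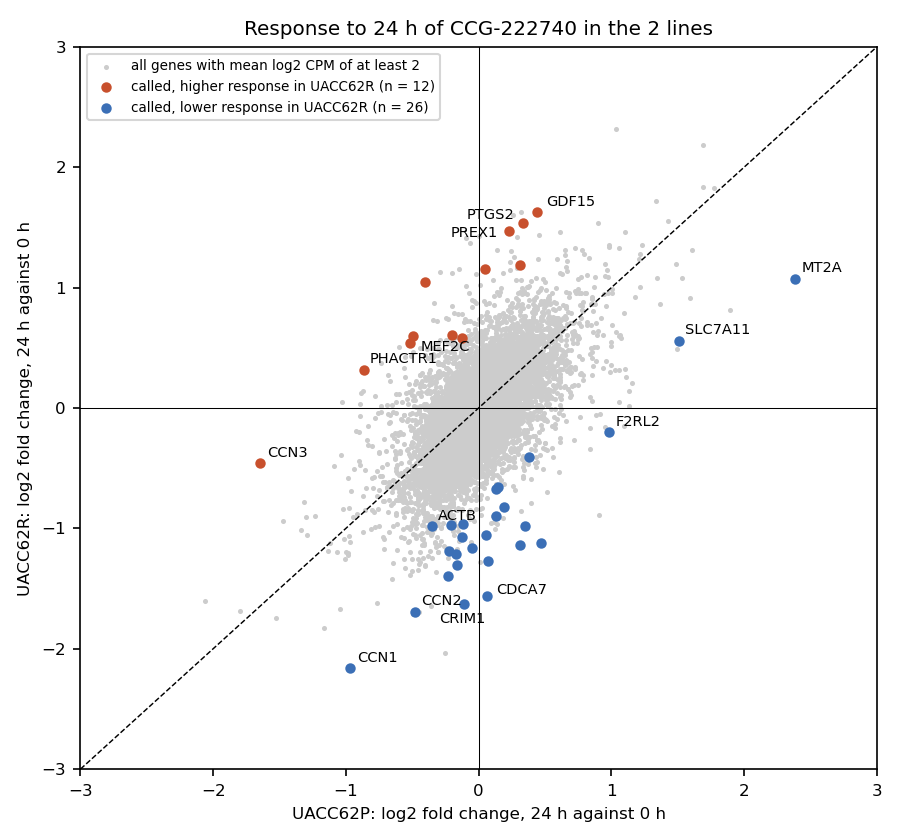
Log2 fold change at 24 h against 0 h in UACC62P (horizontal axis) and UACC62R (vertical axis), one point per gene, with the dashed line marking equal responses. The 26 genes with a called lower response in UACC62R lie below the line and the 12 with a called higher response above it, with MT2A at 2.39 and 1.08 and CCN1 at -0.97 and -2.16.

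Genes that YAP/TAZ and MRTF/SRF are known to drive gave some of the largest negative line differences. CCN1 encodes a secreted matricellular protein that binds integrins. It stood at 9.35 and 10.9 CPM at 0 h and 5.34 and 5.01 CPM at 24 h in UACC62P, and at 96.3 and 93.2 CPM at 0 h and 19.1 and 23.1 CPM at 24 h in UACC62R. The UACC62R libraries were higher than those of UACC62P at both times, and the 0 and 24 h libraries did not overlap in either line. The log2 fold change was -0.97 ± 0.14 (SE) in UACC62P and -2.16 ± 0.12 in UACC62R, a line difference of -1.20 ± 0.18 (adjusted p = 0.0356).

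CCN2 encodes a related matricellular protein and is a standard target of both YAP/TAZ and MRTF. It stood at 18.3 and 21.3 CPM at 0 h and 13.3 and 15.1 CPM at 24 h in UACC62P, and at 111.9 and 100.8 CPM at 0 h and 30.7 and 35.1 CPM at 24 h in UACC62R. The 24 h libraries lay below the 0 h libraries in both lines, with the wider gap in UACC62R. The fold change was -0.48 ± 0.12 in UACC62P, which did not pass the test, and -1.69 ± 0.12 in UACC62R (line difference -1.21 ± 0.17, adjusted p = 0.0213).

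CRIM1, a membrane protein that binds bone morphogenetic proteins, fell in UACC62R and did not pass the test in UACC62P (adjusted p = 0.644). Its levels were 93.2 and 79.2 CPM at 0 h and 86.3 and 73.3 CPM at 24 h in UACC62P. In UACC62R they were 417.8 and 441.1 CPM at 0 h and 146.3 and 131.9 CPM at 24 h. The UACC62P libraries overlapped between the times and those of UACC62R did not, and the line difference was -1.51 ± 0.15 (adjusted p = 0.00671). AMOTL2, an angiomotin that is both a YAP/TAZ target and a restraint on YAP, stood at 21.2 and 17.2 CPM at 0 h and 19.3 and 21.1 CPM at 24 h in UACC62P, against 113.2 and 98.4 CPM and then 47.2 and 40.6 CPM in UACC62R. Its line difference was -1.34 ± 0.18 (adjusted p = 0.0172).

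CCN3, the antiproliferative member of the same matricellular family, differed the other way. It stood at 145.3 and 158.1 CPM at 0 h and 45.3 and 51.8 CPM at 24 h in UACC62P, and at 214.4 and 255.8 CPM at 0 h and 170.9 and 171.9 CPM at 24 h in UACC62R. All 4 libraries of the 24 h groups lay below those of the 0 h groups of their line, by the larger ratio in UACC62P. The fold change was -1.64 ± 0.11 in UACC62P and -0.46 ± 0.10 in UACC62R (line difference 1.19 ± 0.15, adjusted p = 0.0164).

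Of the list of 22 YAP/TAZ targets, CRIM1, AMOTL2, CCN2 and CCN1 passed, all negative, against 0.204% of all genes. With the block 8 passed, all negative, against 4% of all genes. PTPN14, a negative regulator of YAP, DLC1, AXL and AJUBA, a LIM protein that restrains the Hippo kinases, were the added ones, with line differences of -0.52, -0.56, -0.99 and -0.63. The median line difference of the list was -0.60, beside -0.02 over all genes. At 24 h against 0 h, 15 of the 22 fell in UACC62R and 3 in UACC62P, and none rose. Of all genes, 7.86% fell in UACC62R and 1.14% in UACC62P, so falls were called more often in UACC62R in general. With the block 17 fell in UACC62R, and 5 fell and 1 rose in UACC62P, beside 13.8%, 5.9% and 6.15% of all genes. ANKRD1, another common target, had 1 to 52 reads per group and gave no usable line difference.

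The promoters shown are those of called genes with lower responses in UACC62R that held the TEAD motif, since several such genes are YAP/TAZ targets. Of the called members of the YAP/TAZ list, CCN2 held it and AMOTL2 did not, and CRIM1 and CCN1 had no matched promoter. FBN1 and F2RL1 are not members of that list. The sequences are the 250 bases before the annotated start in RefSeq, build GRCh38.p14, 5′ to 3′ on the gene's strand, with GGAATG or its reverse complement CATTCC in capitals. CCN2 lies on the minus strand at chr6:131951373-131951622, FBN1 on the minus strand at chr15:48644971-48645220 and F2RL1 on the plus strand at chr5:76818780-76819029.
CCN2: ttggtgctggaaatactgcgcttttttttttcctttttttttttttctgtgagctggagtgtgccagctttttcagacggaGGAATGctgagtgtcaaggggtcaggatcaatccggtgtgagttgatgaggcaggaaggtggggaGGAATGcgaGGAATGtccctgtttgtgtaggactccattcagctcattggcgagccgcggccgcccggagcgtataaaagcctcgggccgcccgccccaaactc
FBN1: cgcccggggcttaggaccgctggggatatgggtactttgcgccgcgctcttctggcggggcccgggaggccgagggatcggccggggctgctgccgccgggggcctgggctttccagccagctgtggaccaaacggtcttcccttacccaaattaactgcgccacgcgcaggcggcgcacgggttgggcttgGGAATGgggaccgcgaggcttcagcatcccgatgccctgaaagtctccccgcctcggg
F2RL1: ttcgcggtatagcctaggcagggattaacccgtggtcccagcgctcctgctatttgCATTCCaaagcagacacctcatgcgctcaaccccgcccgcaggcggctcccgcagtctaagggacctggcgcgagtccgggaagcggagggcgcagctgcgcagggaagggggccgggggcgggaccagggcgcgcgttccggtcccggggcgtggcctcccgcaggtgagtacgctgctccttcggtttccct
CCN2 held the motif at 3 places, 169, 104 and 95 bases before the start, FBN1 at 58 and F2RL1 at 194. Counted over 250 bases before to 50 after the start, on both strands, the motif lay in 3 of the 21 negative genes with a promoter in the table (14.3%), in 2 of the 11 positive ones (18.2%) and in 1343 of 12060 genes tested (11.1%). A match describes the sequence and is not evidence of binding.

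The called genes of actin and adhesion, ACTB, TLN2, ITGAV and SDC4, had negative line differences too. Not all actin genes did so to this degree, as the list below shows. ACTB, cytoplasmic beta-actin and a classical MRTF/SRF target, stood at 4626 and 4383 CPM at 0 h and 3598 and 3462 CPM at 24 h in UACC62P. Its UACC62R libraries stood at 7310 and 6937 CPM at 0 h and 3645 and 3556 CPM at 24 h. The lines did not overlap at 0 h and overlapped at 24 h. The fold change was -0.35 ± 0.07 in UACC62P and -0.98 ± 0.07 in UACC62R (line difference -0.63 ± 0.10, adjusted p = 0.0469). ACTB has many near-identical pseudogene copies, and reads shared with them stayed uncounted, so its level is uncertain.

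TLN2, a talin that couples integrins to actin, stood at 8.94 and 9.44 CPM at 0 h and 12.3 and 10.5 CPM at 24 h in UACC62P. The UACC62R values were 58.7 and 83.1 CPM at 0 h and 30.7 and 33.6 CPM at 24 h. The UACC62R libraries fell without overlap, and the line difference was -1.46 ± 0.23 (adjusted p = 0.0367). ITGAV, the alpha-V integrin subunit, stood at 190.7 and 160.1 CPM and then 194.2 and 189.7 CPM in UACC62P, and at 276.1 and 299.1 CPM and then 175.5 and 186.0 CPM in UACC62R. SDC4, a heparan sulfate proteoglycan of focal adhesions, stood at 92.3 and 96.8 CPM and then 107.5 and 107.9 CPM in UACC62P, and at 174.3 and 190.8 CPM and then 105.2 and 101.7 CPM in UACC62R. Both genes were higher in UACC62R at 0 h and at about the UACC62P level at 24 h, with line differences of -0.80 ± 0.13 (adjusted p = 0.0472) and -1.01 ± 0.11 (adjusted p = 0.0145).

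The list of MRTF/SRF cytoskeletal targets moved in UACC62R more than in UACC62P. Of its 19 members tested, 12 fell in UACC62R and 1 in UACC62P, and none rose, beside falls in 7.86% and 1.14% of all genes. With the block 15 fell in UACC62R, and 4 fell and 1 rose in UACC62P, beside 13.8%, 5.9% and 6.15% of all genes. ACTB alone passed the test of the line difference, against 0.204% of all genes. DESeq2 called 8, all negative, against 1.4% of all genes. With the block 13 of 19 passed, all negative, against 4% of all genes: ACTB, ACTG1, VCL, LIMA1, TPM1, PDLIM7, FHL2, TPM4, FLNA, MYH9, CNN2, SRF and ZYX. Among these, ACTG1, gamma-actin, had a line difference of -0.84 ± 0.16, TPM1, a tropomyosin, -0.82 ± 0.14, and VCL, vinculin, -0.71 ± 0.13. The median of the list was -0.49, beside -0.02 over all genes. SRF itself stood at a mean of 71.5 and 69.8 CPM at 0 and 24 h in UACC62P and 83.2 and 59.6 CPM in UACC62R (line difference -0.44, adjusted p = 0.244, and 0.0308 with the block). MRTFA (-0.24) and MRTFB (-0.12) did not pass in either fit. Nor did the smooth muscle genes ACTA2 (-0.09 ± 0.18) and TAGLN (-0.77 ± 0.49). ACTA2 had 532 to 1328 reads per group and changed little, by 0.01 ± 0.13 in UACC62P and -0.08 ± 0.12 in UACC62R. TAGLN was low in UACC62P, with 56 and 84 reads at 0 and 24 h.

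The CArG box, the site that SRF binds, is shown in the promoters of ACTG1 and SRF, which passed with the block. VCL and TPM1, which also passed with it, held no box, and ACTB had no matched promoter. The other members that passed entered only the shares given below, where matched. ACTG1 lies on the minus strand at chr17:81512800-81513049 and SRF on the plus strand at chr6:43171019-43171268 (RefSeq, GRCh38.p14), with the box in capitals.
ACTG1: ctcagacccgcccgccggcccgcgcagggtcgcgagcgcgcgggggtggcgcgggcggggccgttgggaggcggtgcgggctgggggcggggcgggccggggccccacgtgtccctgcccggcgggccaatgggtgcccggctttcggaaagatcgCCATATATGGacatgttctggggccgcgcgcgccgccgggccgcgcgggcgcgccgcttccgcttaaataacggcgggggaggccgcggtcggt
SRF: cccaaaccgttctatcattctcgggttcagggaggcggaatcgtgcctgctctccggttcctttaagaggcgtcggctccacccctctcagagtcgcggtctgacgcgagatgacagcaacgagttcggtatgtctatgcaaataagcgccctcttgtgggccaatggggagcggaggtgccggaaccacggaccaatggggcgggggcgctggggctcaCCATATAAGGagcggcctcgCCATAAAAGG
ACTG1 held a box 94 bases before the start and SRF held boxes at 30 and 10. The box lay in 1.15% of all 12060 promoters, in 12 of the 348 negative genes of the blocked fit (3.45%) and in 4 of the 229 positive ones (1.75%). None of the 21 negative genes of the fit without the block held one in this window.

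**Figure D2:**
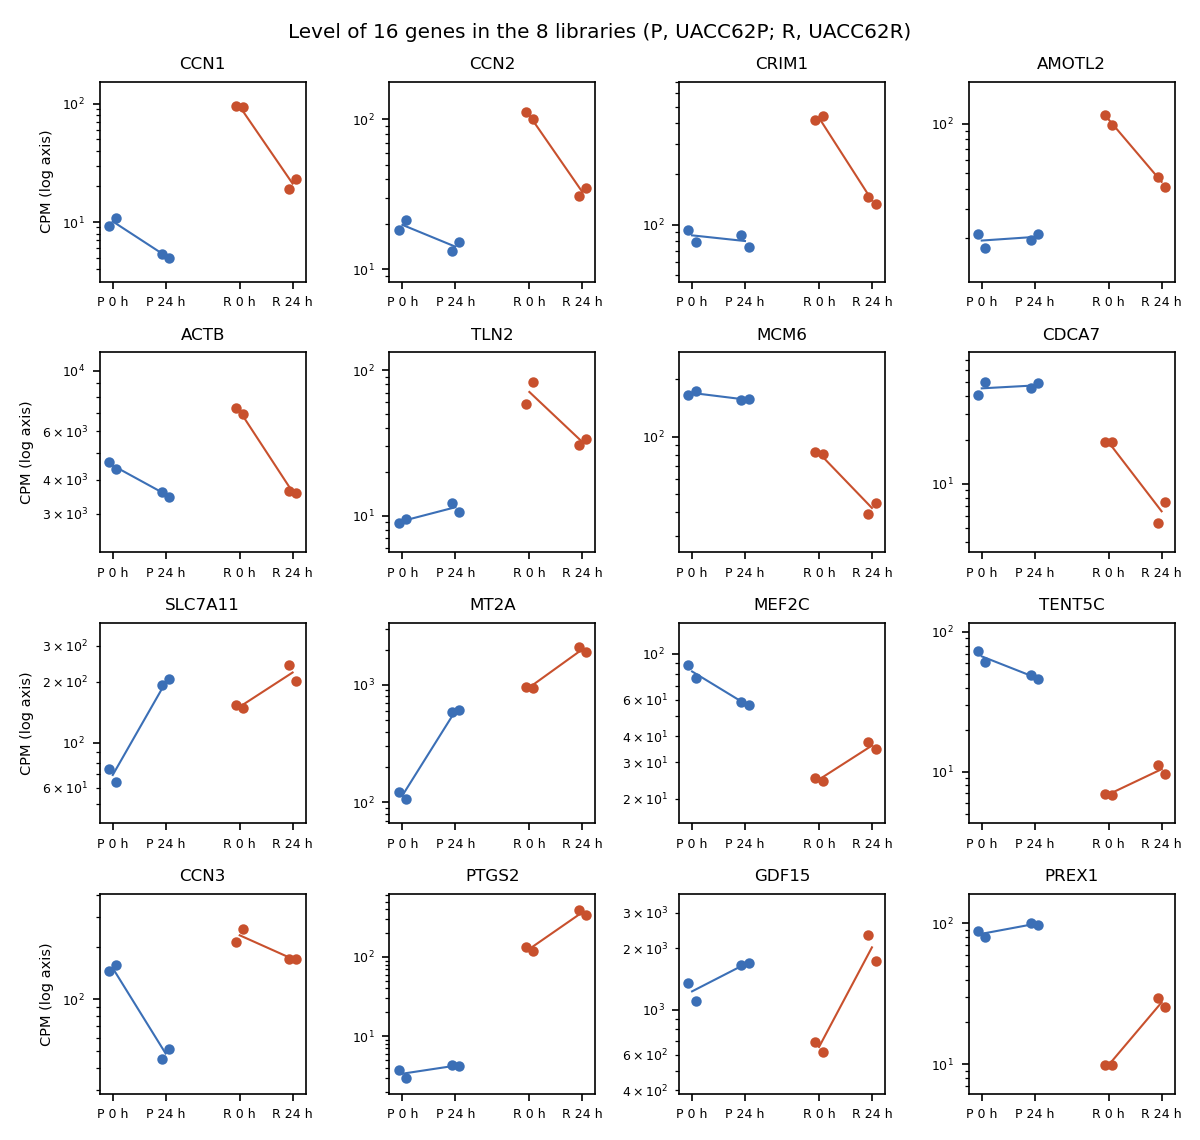
CPM on a log axis of 16 genes in each of the 8 libraries (points), with lines joining the means of the 2 libraries at 0 and 24 h in UACC62P (P, blue) and UACC62R (R, red). CCN1, CCN2, CRIM1, AMOTL2, TLN2, MCM6 and CDCA7 slope down more steeply in UACC62R, while MEF2C and TENT5C slope down in UACC62P and up in UACC62R.

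Extracellular matrix genes were less uniform. FBN1, fibrillin-1 of elastic microfibrils, stood at 12.9 and 9.95 CPM at 0 h and 15.9 and 13.2 CPM at 24 h in UACC62P, and at 156.3 and 135.3 CPM at 0 h and 80.6 and 67.4 CPM at 24 h in UACC62R. It fell in UACC62R and did not pass in UACC62P (line difference -1.33 ± 0.21, adjusted p = 0.0367). It was the only one of 24 matrix genes to pass, against 0.204% of all genes. With the block, in which 4% of all genes passed, 6 passed as negative (FBN1, COL6A1, COL4A1, VCAN, COL5A2 and COL5A1) and LAMB1, a laminin chain, as positive (0.36 ± 0.13). LAMB1 rose from a mean of 874.8 to 1731 CPM in UACC62P and from 635.9 to 1611 CPM in UACC62R. The median of the list was -0.23.

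The rest of the negative genes, put in order here after their values were seen, included receptors. F2RL1, the protease-activated receptor PAR2, stood at 15.1 and 13.5 CPM at 0 h and 16.8 and 13.1 CPM at 24 h in UACC62P. In UACC62R it stood at 129.8 and 125.1 CPM at 0 h and 65.3 and 57.4 CPM at 24 h (line difference -1.11 ± 0.18, adjusted p = 0.0393). F2RL2, the related receptor PAR3, differed through the other line. It stood at 8.73 and 7.69 CPM at 0 h and 17.8 and 14.8 CPM at 24 h in UACC62P, and at 234.1 and 253.9 CPM at 0 h and 206.5 and 217.4 CPM at 24 h in UACC62R (line difference -1.19 ± 0.15, adjusted p = 0.0164).

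JAG1, a Notch ligand, stood at 67.3 and 61.6 CPM and then 70.3 and 70.7 CPM in UACC62P, and at 147.2 and 156.3 CPM and then 77.2 and 86.0 CPM in UACC62R (line difference -1.02 ± 0.13, adjusted p = 0.0164). MAP3K14, the kinase NIK of the noncanonical NF-kB pathway, stood at 5.38 and 4.77 CPM and then 7.34 and 6.76 CPM in UACC62P, and at 22.9 and 19.7 CPM and then 9.79 and 9.84 CPM in UACC62R (-1.59 ± 0.20, adjusted p = 0.0164). Both were higher in UACC62R at 0 h, and their levels in the lines had drawn closer at 24 h. DCBLD1, a membrane protein, had a similar course, from 46.8 and 54.7 CPM to 21.3 and 22.4 CPM in UACC62R, with 17.2 and 17.6 CPM in UACC62P at 24 h (-1.04 ± 0.15, adjusted p = 0.0312).

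Other negative genes were lower in UACC62R than in UACC62P from the start. PLAT, tissue plasminogen activator, stood at 770.6 and 712.7 CPM and then 743.5 and 688.1 CPM in UACC62P, and at 428.7 and 420.7 CPM and then 209.7 and 168.6 CPM in UACC62R (line difference -1.12 ± 0.14, adjusted p = 0.0164). IL1RAP, the accessory protein of the interleukin-1 receptor, stood at 690.0 and 664.3 CPM and then 591.6 and 578.8 CPM in UACC62P, and at 110.3 and 111.4 CPM and then 57.6 and 55.5 CPM in UACC62R (-0.76 ± 0.10, adjusted p = 0.0185). For these genes the distance between the lines was wider at 24 h than at 0 h. FRMD5, a FERM-domain protein, had a line difference of -0.94 ± 0.14, with 37.5 to 44.3 CPM in the 4 UACC62P libraries and a fall from 19.7 and 19.98 CPM to 9.62 and 9.29 CPM in UACC62R. SIK1, a salt-inducible kinase, started level in the lines (12.6 to 14.6 CPM in the 4 libraries at 0 h) and stood at 12.9 and 12.1 CPM in UACC62P and 5.76 and 5.25 CPM in UACC62R at 24 h (-1.14 ± 0.19, adjusted p = 0.0472).

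DNA replication genes fell further in UACC62R, and mitotic genes did not differ detectably. MCM6, a subunit of the replicative helicase, stood at 165.7 and 173.7 CPM at 0 h and 155.8 and 157.7 CPM at 24 h in UACC62P. Its UACC62R libraries stood at 82.9 and 80.8 CPM at 0 h and 39.2 and 44.9 CPM at 24 h. The 24 h libraries lay below the 0 h libraries in both lines, with a wide gap in UACC62R alone, and the line difference was -0.85 ± 0.12 (adjusted p = 0.0274). CDCA7, a MYC and E2F target that acts in DNA methylation with HELLS, stood at 40.2 and 49.6 CPM and then 44.9 and 49.2 CPM in UACC62P, and at 19.1 and 19.2 CPM and then 5.40 and 7.51 CPM in UACC62R. Its line difference of -1.63 ± 0.21 (adjusted p = 0.0164) was the most negative of the 38.

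DTL, the substrate adaptor that directs CDT1 to destruction, stood at 79.6 and 81.3 CPM and then 66.8 and 71.4 CPM in UACC62P, and at 66.8 and 76.2 CPM and then 28.4 and 34.1 CPM in UACC62R (line difference -0.97 ± 0.15, adjusted p = 0.0367). ZNF367, a zinc finger protein with E2F-like expression, had a line difference of -1.17 ± 0.18, with 22.8 to 30.0 CPM in the 4 UACC62P libraries and a fall from 11.8 and 11.9 CPM to 4.58 and 4.38 CPM in UACC62R. CDK6, the kinase that opens G1 with D cyclins, stood at 247.1 and 221.7 CPM and then 274.9 and 244.1 CPM in UACC62P, and at 151.0 and 145.8 CPM and then 97.8 and 90.8 CPM in UACC62R (-0.80 ± 0.13, adjusted p = 0.0407). These 3 genes fell in UACC62R and did not pass in UACC62P.

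Of 24 genes of the G1/S and DNA replication list, 23 fell in UACC62R and 1 in UACC62P without the block, and 24 and 16 with it. Of all genes, 7.86% fell in UACC62R and 1.14% in UACC62P without the block, and 13.8% and 5.9% with it. MCM6 alone passed the test of the line difference, against 0.204% of all genes. DESeq2 called 6, all negative, against 1.4% of all genes. With the block 13 passed, all negative, against 4% of all genes. The MCM helicase genes MCM2, MCM3, MCM4, MCM5 and MCM6 were among them, with CDT1 (-0.83 ± 0.20), which loads the helicase, CCNE2 (-0.91 ± 0.22), an E cyclin, MCM10, GINS1, GINS2, RFC3, CDC6 and E2F1. The line difference was negative for every one of the 24, from -0.91 to -0.30, with a median of -0.49. Of 25 genes of G2/M and mitosis, 0 passed by edgeR in either fit, 0 by DESeq2 and 0 at an unadjusted p under 0.05. Their line differences ran from -0.34 to 0.19, with a median of -0.06. Beside the same shares of all genes, 13 of the 25 fell in UACC62R and 3 in UACC62P without the block, and 24 in each line with it. The median response was -0.53 in UACC62P and -0.60 in UACC62R.

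MT2A and SLC7A11, which serve metal and cystine handling, rose by a larger ratio in UACC62P than in UACC62R. MT2A, a metallothionein that binds zinc, stood at 122.8 and 106.7 CPM at 0 h and 584.7 and 615.3 CPM at 24 h in UACC62P. The UACC62R values were 966.3 and 938.2 CPM at 0 h and 2102 and 1913 CPM at 24 h. It rose without overlap in both lines, from a higher level in UACC62R, by 2.39 ± 0.09 in UACC62P and 1.08 ± 0.09 in UACC62R (line difference -1.31 ± 0.13, adjusted p = 0.00671). MT1X, another metallothionein, rose from a mean of 14.8 to 50.9 CPM in UACC62P and from 52.0 to 184.2 CPM in UACC62R, with a line difference of 0.05 ± 0.20 that did not pass. SLC30A1, the zinc exporter, rose from a mean of 53.1 to 120.2 CPM in UACC62P and from 59.3 to 112.7 CPM in UACC62R (-0.25 ± 0.20, not passed). Metallothionein genes are near-identical, and reads shared between them stayed uncounted.

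The MT2A promoter is shown for its metal response elements, the sites of the zinc sensor MTF1 (plus strand, chr16:56608334-56608583, RefSeq, GRCh38.p14), with TGCNCNC or its reverse complement in capitals.
MT2A: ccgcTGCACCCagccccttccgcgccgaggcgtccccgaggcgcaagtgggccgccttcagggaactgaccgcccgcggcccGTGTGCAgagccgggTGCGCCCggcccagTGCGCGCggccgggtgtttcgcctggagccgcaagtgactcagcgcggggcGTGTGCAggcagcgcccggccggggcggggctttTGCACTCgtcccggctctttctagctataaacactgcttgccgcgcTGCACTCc
The stretch shown held 7 matches. The element is short and lay in 63.1% of the 12060 promoters, in 16 of 21 negative genes and in 4 of 11 positive ones.

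SLC7A11, the cystine importer, stood at 74.5 and 64.4 CPM at 0 h and 191.5 and 204.9 CPM at 24 h in UACC62P. In UACC62R it stood at 152.9 and 147.6 CPM at 0 h and 242.3 and 200.6 CPM at 24 h. The lines did not overlap at 0 h and did at 24 h, and the line difference was -0.95 ± 0.15 (adjusted p = 0.0367). SLC7A1, a transporter of cationic amino acids, stood at 124.6 and 103.5 CPM and then 150.7 and 145.6 CPM in UACC62P, and at 174.8 and 180.2 CPM and then 136.5 and 131.0 CPM in UACC62R (-0.79 ± 0.13, adjusted p = 0.0472). SLC7A8, an exchanger of neutral amino acids, differed the other way, with 53.6 and 36.9 CPM and then 34.2 and 34.3 CPM in UACC62P, and 13.7 and 13.3 CPM and then 31.4 and 24.2 CPM in UACC62R (1.45 ± 0.24, adjusted p = 0.0472).

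ATF4, which is translated when amino acids are short, drives many such genes. Of 20 members of its list, SLC7A11 and SLC7A1 passed, against 0.204% of all genes. With the block 8 passed, all negative, against 4% of all genes. The other 6 were ASNS, PHGDH, PSAT1, MTHFD2, SLC7A5 and ATF4, which serve asparagine, serine and one-carbon synthesis and leucine uptake or drive them. ASNS stood at a mean of 66.1 and 147.4 CPM at 0 and 24 h in UACC62P and 51.2 and 59.1 CPM in UACC62R (-0.95 ± 0.25, adjusted p = 0.182, and 0.00024 with the block). With the block, 15 of the 20 were higher at 24 h in UACC62P and 7 in UACC62R, beside 6.15% and 11.3% of all genes. The median line difference of the list was -0.39. SLC7A11 is also on the list of 21 NRF2 targets, of which it alone passed without the block. The median line difference of that list was 0.15. Without the block 11 of its members rose in UACC62R and 2 in UACC62P, beside 5.87% and 1.74% of all genes.

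The 12 genes with a higher response in UACC62R included a pair of the prostaglandin pathway. PTGS2, the inducible cyclooxygenase COX-2, stood at 3.73 and 2.99 CPM at 0 h and 4.28 and 4.20 CPM at 24 h in UACC62P. Its UACC62R libraries stood at 133.3 and 118.9 CPM at 0 h and 392.0 and 339.5 CPM at 24 h. It rose in UACC62R from a level already well above that of UACC62P (line difference 1.20 ± 0.19, adjusted p = 0.0367). PLA2G4A, the cytosolic phospholipase that releases arachidonic acid for it, stood at 45.2 and 49.6 CPM and then 39.9 and 42.8 CPM in UACC62P, and at 32.0 and 32.2 CPM and then 48.6 and 49.1 CPM in UACC62R (0.80 ± 0.13, adjusted p = 0.0440). The order of the lines was thus reversed between 0 and 24 h.

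GDF15, a stress-induced cytokine, stood at 1359 and 1100 CPM at 0 h and 1658 and 1686 CPM at 24 h in UACC62P, and at 693.6 and 615.4 CPM at 0 h and 2322 and 1725 CPM at 24 h in UACC62R (line difference 1.19 ± 0.19, adjusted p = 0.0447). It was the one member of 22 p53 targets to pass, against 0.204% of all genes. With the block TP53INP1 (0.78) was the other, against 4% of all genes, and no direction is read from this list. PREX1, a Rac exchange factor, stood at 89.0 and 80.0 CPM and then 101.6 and 97.0 CPM in UACC62P, and at 9.95 and 9.88 CPM and then 29.6 and 25.6 CPM in UACC62R (1.24 ± 0.15, adjusted p = 0.0159). NRCAM, a neuronal adhesion molecule, stood at 236.7 and 250.1 CPM and then 307.3 and 298.6 CPM in UACC62P, and at 21.5 and 17.8 CPM and then 47.9 and 41.7 CPM in UACC62R (0.87 ± 0.15, adjusted p = 0.0472). Both were low in UACC62R at 0 h and remained below UACC62P at 24 h.

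RPSA, a ribosomal protein of the small subunit that also serves as a laminin receptor, stood at 36.5 and 42.1 CPM and then 38.6 and 42.8 CPM in UACC62P, and at 62.3 and 57.1 CPM and then 139.5 and 126.6 CPM in UACC62R (line difference 1.11 ± 0.15, adjusted p = 0.0172). RPSA has many pseudogene copies, so that the counted reads are a part of its total, and it was the one gene of the 38 that did not pass in the fit of 15 libraries (adjusted p = 0.172). RNF128, a membrane ubiquitin ligase, stood at 72.2 to 79.9 CPM in the 4 UACC62P libraries and rose from 37.99 and 36.2 CPM to 56.1 and 55.0 CPM in UACC62R (0.71 ± 0.12, adjusted p = 0.0440).

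Opposite responses were called for MEF2C and TENT5C. MEF2C, a transcription factor of muscle and neural crest derivatives, stood at 87.7 and 76.4 CPM at 0 h and 58.2 and 56.7 CPM at 24 h in UACC62P, and at 25.1 and 24.5 CPM at 0 h and 37.4 and 34.8 CPM at 24 h in UACC62R. The fold change was -0.52 ± 0.10 in UACC62P and 0.54 ± 0.10 in UACC62R (line difference 1.06 ± 0.14, adjusted p = 0.0164). TENT5C, a poly(A) polymerase of the cytoplasm, stood at 72.5 and 61.3 CPM and then 48.9 and 46.0 CPM in UACC62P, and at 6.91 and 6.83 CPM and then 11.2 and 9.61 CPM in UACC62R (1.09 ± 0.17, adjusted p = 0.0367). In both genes the 0 and 24 h libraries did not overlap in either line. PHACTR1, an actin-binding regulator of protein phosphatase 1 with the same RPEL motifs as the MRTFs, fell from 23.2 and 22.6 CPM to 12.7 and 12.4 CPM in UACC62P, and stood at 5.91 and 6.95 CPM and then 8.77 and 7.31 CPM in UACC62R (1.19 ± 0.20, adjusted p = 0.0472).

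In several lists members passed with the block alone. Beside the list counts below, DESeq2 called 1.4% of all genes, and 1915 of all 18635 genes had an unadjusted p under 0.05. Of 16 genes of MAPK pathway output, which report on ERK activity, 0 passed by edgeR without the block, 2 by DESeq2 and 8 at an unadjusted p under 0.05, and 9 passed with the block, in both directions, against 4% of all genes. The ERK antagonists SPRY1 (1.31 ± 0.43), SPRY2 (0.52 ± 0.14) and SPRY4 (0.56 ± 0.28) and the factor ETV1 (0.39 ± 0.13) were positive. The ERK phosphatase gene DUSP6 (-0.56 ± 0.18), the receptors EPHA2 (-0.84 ± 0.27) and EPHA4 (-0.84 ± 0.18), IER3 (-0.56 ± 0.13) and the cyclin gene CCND1 (-0.35 ± 0.16) were negative. The median of this list was 0.18.

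Among 18 endoplasmic reticulum chaperones, 0 passed by edgeR without the block, 3 by DESeq2 and 8 at an unadjusted p under 0.05, all positive. With the block 6 passed, all positive, against 1.55% of all genes: CRELD2, CALR, PDIA4, SDF2L1, MANF and HSPA5, with a list median of 0.25. CALR, calreticulin, stood at a mean of 2070 and 1605 CPM at 0 and 24 h in UACC62P and 1534 and 1694 CPM in UACC62R (0.51 ± 0.11). PDIA4, a disulfide isomerase, stood at 974.4 and 392.4 CPM in UACC62P and 640.0 and 373.1 CPM in UACC62R (0.53 ± 0.14). Of 21 lysosome and autophagy genes, 0 passed by edgeR without the block (4 at an unadjusted p under 0.05, 1 by DESeq2), and CTSL, GPNMB, WIPI1 and NEU1 were positive with the block (again beside 1.55% of all genes), CTSL, a lysosomal protease, by 0.56 ± 0.12.

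Of 22 genes of the dedifferentiated or invasive list, 7 passed as negative with the block and none as positive, against 2.46% and 1.55% of all genes: F2RL1 and CCN1, which also passed without it, FOSL1, THBS1, AXL, AJUBA and EGFR. AXL stood at a mean of 3.30 and 4.62 CPM at 0 and 24 h in UACC62P and 248.7 and 175.5 CPM in UACC62R (-0.99 ± 0.22, adjusted p = 0.106, and 0.0115 with the block). FOSL1, an AP-1 subunit, stood at 180.0 and 134.3 CPM in UACC62P and 498.1 and 242.7 CPM in UACC62R (-0.61 ± 0.12). THBS1, the matricellular protein thrombospondin-1, stood at 145.0 and 101.8 CPM in UACC62P and 9123 and 4624 CPM in UACC62R (-0.47 ± 0.16). Of 22 growth factor receptors and ligands, 0 passed by edgeR without the block and 2 by DESeq2. With the block HBEGF (-0.87 ± 0.16), AXL, EGFR, MET and EGF were negative and none was positive, against the same shares of all genes. Of 20 immediate early genes, 0 passed by edgeR without the block and 4 by DESeq2. With the block MYC, IER3, FOSL1 and IER2 were negative, against 2.46% of all genes. The nuclear receptor gene NR4A3 was positive (1.74 ± 0.38), against 1.55%. The lists share members, among them AXL, AJUBA, CCN1, EGFR, FOSL1 and IER3, so their counts are not separate observations.

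**Figure D3:**
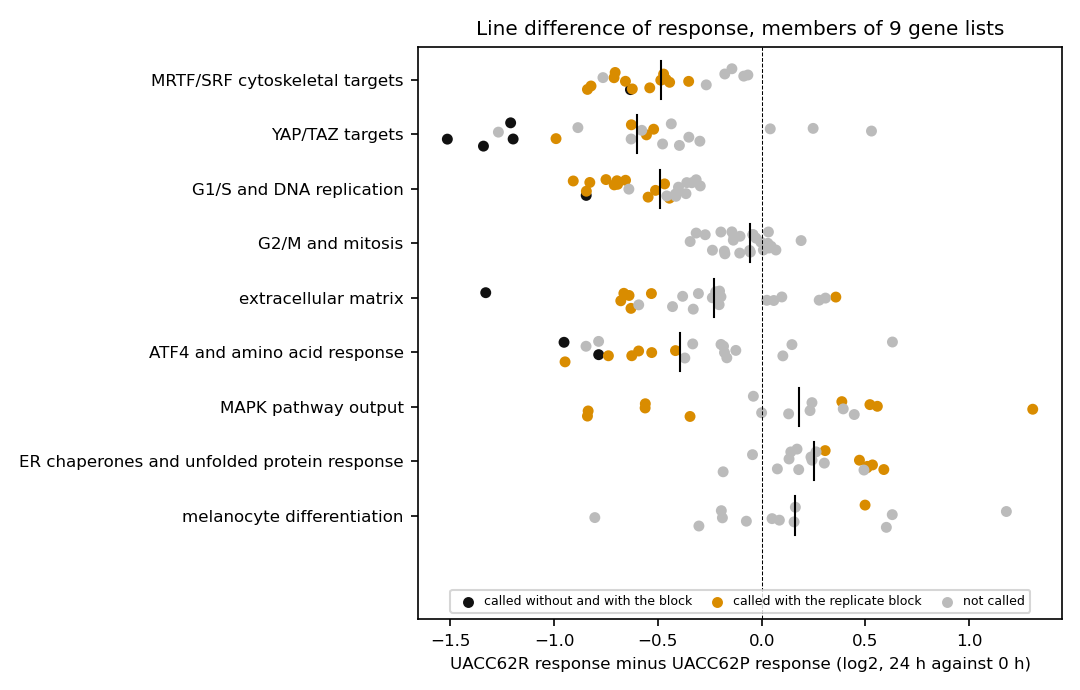
Line difference of response (horizontal axis, log2, UACC62R minus UACC62P) of the members of 9 gene lists whose mean log2 CPM reached 0, one point per gene. Vertical bars mark the median of all tested members of the list. The medians of the MRTF/SRF (-0.49), YAP/TAZ (-0.60) and G1/S (-0.49) lists lie left of 0, and that of G2/M and mitosis lies at -0.06.

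Melanocyte lineage genes, many of which stood far apart in level between the lines, gave few calls of the line difference. Of 18 melanocyte differentiation genes 0 passed by edgeR and 0 by DESeq2 (3 at an unadjusted p under 0.05, all positive), and with the block RAB27A alone did (0.50 ± 0.13), shares near the 0.204% and 4% of all genes. In UACC62R 8 of the 18 stood under 1 CPM at both times, so that a line difference in them was hard to detect at this depth, and the values of the list ran from -1.36 to 1.56. MITF, the master factor of the lineage, stood at a mean of 233.3 and 169.7 CPM at 0 and 24 h in UACC62P and 50.7 and 41.3 CPM in UACC62R (0.16 ± 0.13). SOX10 had a line difference of 0.16 ± 0.13. Of 24 genes of COPII and secretory transport, and of 20 interferon-stimulated genes, 0 passed by edgeR in either fit and 0 by DESeq2 (3 and 2 at an unadjusted p under 0.05), with medians of 0.06 and 0.10. Of all 18635 genes, 1915 had an unadjusted p under 0.05, and the few at that level in these lists are not read as a result.

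Other lists had few members that passed with the block, and no direction is read from them. Of all genes, 1.55% passed as positive and 2.46% as negative. Positive and negative counts were 1 and 0 of 5 aryl hydrocarbon receptor targets, 1 and 2 of 23 glycolysis and hypoxia genes and 1 and 1 of 18 NF-kB targets and cytokines. Counts were 1 and 2 of 22 TGF-beta pathway genes, 1 and 0 of 16 BCL2 family genes and 1 and 0 of 14 heat shock genes. For 23 cholesterol synthesis genes they were 1 and 0, and for 21 NRF2 targets 0 and 2. Not all that passed are named. CYP1A1, the main target of the aryl hydrocarbon receptor, was positive (1.43 ± 0.27, from a mean of 12.0 to 32.3 CPM in UACC62R and 6.40 to 6.41 CPM in UACC62P). SLC2A1, the glucose transporter GLUT1, was negative (-0.77 ± 0.19). The cytokine gene LIF (-0.61 ± 0.16) was negative, and TNFAIP3, an inhibitor of NF-kB, was positive (0.59 ± 0.16). ID2 (1.00 ± 0.21), BMF (1.67 ± 0.30), a pro-apoptotic BH3-only gene, and CRYAB (0.53 ± 0.16), a small heat shock protein, were positive. The heme oxygenase gene HMOX1 (-0.09 ± 0.29) and the heat shock gene HSPA1A (0.47 ± 0.22) did not pass. KRT18, a keratin of simple epithelia among the markers of other cell types, stood at 24.1 and 34.2 CPM in UACC62P and 71.6 and 58.6 CPM in UACC62R (-0.79 ± 0.15, 0.00276 as the adjusted p with the block). The epithelial markers EPCAM and CDH1 had 8 and 0 reads in all 8 libraries together.

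The series also holds 2 and 6 h libraries, whose levels are given here beside those at 24 h. Replicate 1 labelled as UACC62P at 2 h had 18.2 CPM of SOX10 and 198 CPM of AXL, where the other 7 UACC62P libraries had 738 to 915 and 2.63 to 5.48 CPM and the 8 UACC62R libraries 20.3 to 30.2 and 174 to 284 CPM. These markers go against its label, and it was left out. A fit of the other 15 libraries, whose CPM are scaled over those 15 and so differ slightly from the values above, called 1 gene for the line difference at 6 h (0.00493% of 20280 genes) and 114 at 24 h. The comparisons at 6 and 24 h share the 0 h libraries, and the difference between the times was not tested. The gene called at 6 h was MT2A (-1.63 ± 0.14, adjusted p = 0.000286, beside -1.30 ± 0.14 at 24 h). In UACC62P it stood at 380.4 CPM in the one library at 2 h, 895.4 and 1098 CPM at 6 h and 586.2 and 611.4 CPM at 24 h. The UACC62R values were 1704 and 1880 CPM at 2 h, 2631 and 2677 CPM at 6 h and 2085 and 1920 CPM at 24 h. MT2A was thus higher at 6 h than at 24 h in every library of each line.

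CCN2 in UACC62R stood at 110.5 and 101.2 CPM at 0 h, 146.6 and 116.8 CPM at 2 h, 111.4 and 132.9 CPM at 6 h and 30.4 and 35.2 CPM at 24 h. CRIM1 in UACC62R stood at 393.5 and 410.5 CPM at 6 h and 145.2 and 132.4 CPM at 24 h. MCM6 in UACC62R stood at 90.7 and 84.5 CPM at 6 h and 38.9 and 45.0 CPM at 24 h. In these 3 genes the 6 h libraries lay with the earlier times and apart from 24 h. CCN1 in UACC62R was already lower at 6 h, with 95.1 and 93.6 CPM at 0 h, 63.2 and 74.6 CPM at 6 h and 19.0 and 23.2 CPM at 24 h. Line differences at 6 h were 0.68 ± 0.18 for CCN2, -0.31 ± 0.16 for CRIM1, 0.08 ± 0.11 for MCM6 and 0.10 ± 0.10 for ACTB, none of which passed. PTGS2 in UACC62R stood at 117.3 and 97.3 CPM at 6 h and 388.9 and 340.9 CPM at 24 h. SLC7A11 in UACC62P stood at 109.8 and 134.9 CPM at 6 h, between its levels at 0 h and at 24 h, with a line difference of -0.62 ± 0.17 at 6 h. Some called genes had 6 h line differences near those at 24 h, though these did not pass at 6 h. At 6 and 24 h they were -0.94 ± 0.19 and -1.11 ± 0.19 for F2RL1, and -0.81 ± 0.16 and -1.02 ± 0.16 for JAG1. For F2RL2 they were -0.76 ± 0.15 and -1.18 ± 0.15, and for PHACTR1 1.02 ± 0.19 and 1.19 ± 0.19.

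**Figure D4:**
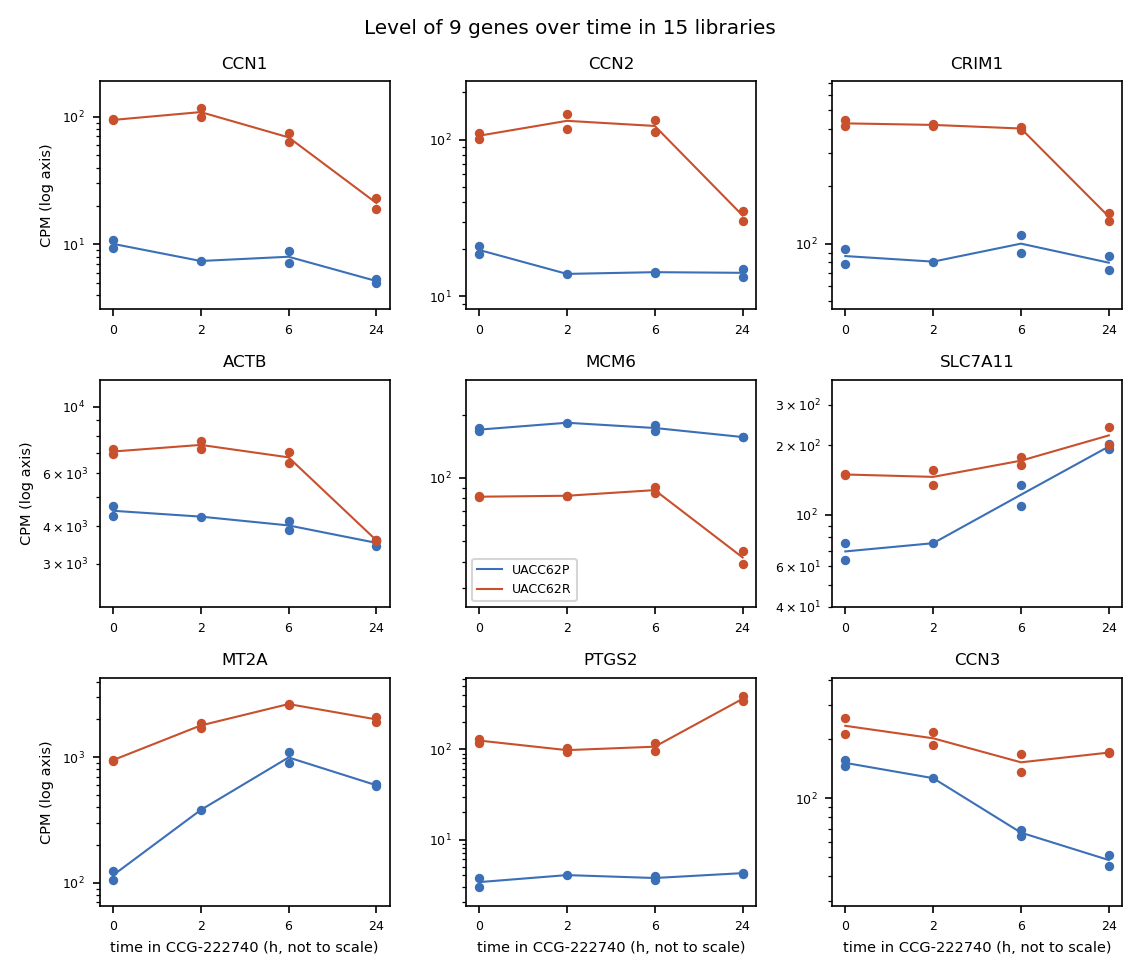
CPM on a log axis of 9 genes against hours in CCG-222740 (0, 2, 6 and 24 h, not to scale) in 15 libraries (points), with lines through the group means of UACC62P (blue) and UACC62R (red). CCN1, CCN2, CRIM1, ACTB and MCM6 in UACC62R are lower at 24 h than at each earlier time, and MT2A peaks at 6 h in both lines.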

How the data were processed

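Messenger RNA of 8 libraries (UACC62P and UACC62R, 0 and 24 h, 2 each) was analysed. Per the labels' protocols, the libraries were stranded and poly(A)-selected, with single reads of 50 bp. Per the submitters' processing notes, bcl2fastq 2.19.0, FastQC 0.11.5, Trimmomatic 0.33, HISAT2 2.1.0, HTSeq 0.6.1 and build hg19 were used. How strand entered the counting is not stated in these sources, and values of overlapping genes are uncertain. The authors deposited raw read counts per library for 63677 Ensembl gene IDs, of which a table of names matched 52181. Summary lines entered neither library sizes nor tests. Of all reads, 10.8 to 17.8% were not aligned in the 8 libraries, 18.6 to 21% aligned to more than 1 place, 2.15 to 2.94% fell outside genes, and 4.06 to 4.45% were ambiguous between genes.

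Counts were scaled by TMM and filtered by filterByExpr, and the quasi-likelihood F test of edgeR 4.0.16 (with limma 3.58.1 in R 4.3.3) was run with 1 coefficient for each group and 4 residual degrees of freedom, with Benjamini-Hochberg adjustment over all genes tested. Standard errors are the absolute log2 fold change over the root of F. The scripts were tested on simulated data. Log2 CPM used a prior count of 2. In all 6 pairs of groups, same-numbered libraries deviated from their group means together (correlation 0.32 to 0.66 over 8275 genes). The labels do not state a pairing, and the numbers were taken to pair the libraries on this check. Blocked counts are given beside the counts of calls and the lists described. Line differences and standard errors of single genes are from fits without the block, also where a gene passed with the block alone. Those standard errors are therefore not the ones behind the blocked calls. The 2 libraries of each group differed by more than sampling noise (chi-square of 8.98 to 18.7 per degree of freedom). Genes named are the 15 called each way with the largest line difference, with a mean log2 CPM of 2 or more, at least 20 reads per group and no overlap between the lines in the change from 0 to 24 h, up to 4 called members of each of 27 gene lists (540 entries, 538 with an ID) or the one with the smallest p, and a fixed set of SRF, lineage and stress genes. The other called genes, and list members that passed with the block, were named after their values were seen. The members, lists and tests were chosen with earlier results of these data known. Alternatives were other scalings and filters, DESeq2 1.42.0, the replicate block, 15 or 16 libraries and each library left out. Fits of 15 libraries with the block, and of 7 with the block, were added after seeing the data. Promoters came from RefSeq (GRCh38.p14) and matched 12060 of the genes tested by symbol, 32 of the 38 called. CRIM1, CCN3, PLAT, CCN1, SLC7A11 and ACTB were not matched.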

Additional observations from a re-analysis of the deposited data

Results flagged for a closer look

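Each gene here has a 24 h response that differed between the lines by the test of the difference itself (edgeR's quasi-likelihood test, Benjamini-Hochberg adjusted p under 0.05). Values are the log2 line difference, UACC62R response minus UACC62P response. Among YAP/TAZ targets these were CCN1 (-1.20), CCN2 (-1.21), CRIM1 (-1.51) and AMOTL2 (-1.34). Among genes of actin, adhesion and matrix they were ACTB (-0.63), TLN2 (-1.46), ITGAV (-0.80), SDC4 (-1.01) and FBN1 (-1.33). Among genes of replication and the cell cycle they were MCM6 (-0.85), CDCA7 (-1.63), DTL (-0.97), ZNF367 (-1.17) and CDK6 (-0.80). Receptors, ligands and signalling genes with a lower response in UACC62R were F2RL1 (-1.11), F2RL2 (-1.19), JAG1 (-1.02), IL1RAP (-0.76), MAP3K14 (-1.59), SIK1 (-1.14), PLAT (-1.12), DCBLD1 (-1.04) and FRMD5 (-0.94). Metal and amino acid genes were MT2A (-1.31), SLC7A11 (-0.95) and SLC7A1 (-0.79). Genes with a higher response in UACC62R were PTGS2 (1.20), PLA2G4A (0.80), GDF15 (1.19), PREX1 (1.24), NRCAM (0.87), RPSA (1.11), RNF128 (0.71), SLC7A8 (1.45) and CCN3 (1.19). Genes that fell in UACC62P and did not fall in UACC62R were MEF2C (1.06), TENT5C (1.09) and PHACTR1 (1.19). No cause of these differences was tested. Within replicate 1 and within replicate 2, each of the 38 values had the sign given here. The genes were chosen on these same libraries, so the shared sign was largely set by the choice and is no separate support.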

How the results depend on the processing

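All 38 genes kept the sign of their line difference in all 25 alternative settings. These settings reuse the libraries on which the genes were called, so the kept sign was largely set by that choice and is no separate support. The counts moved more, and the cause was not tested. Given as genes with a higher and a lower response in UACC62R (12 and 26 in the report), there were 8 and 20 with DESeq2's size factors, 19 and 26 with library size, 216 and 264 with no filter on low counts, 8 and 22 with a mean of at least 1 CPM, 115 and 145 with DESeq2, 49 and 65 in 15 libraries, 358 and 464 in 15 libraries with the block, and 0 and 0 in 16 libraries by edgeR (631 genes at an unadjusted p under 0.05), a fit that holds the library labelled UACC62P 2 h replicate 1. With the replicate block, which pairs same-numbered libraries, there were 288 and 458. For genes higher and lower at 24 h in UACC62P (325 and 212), the block gave 1146 and 1099, no filter 732 and 633, DESeq2 492 and 420, 15 libraries 335 lower, 15 libraries with the block 1224 and 1224, and 16 libraries 20 and 9. For UACC62R (1094 and 1465), the block gave 2098 and 2573, 15 libraries with the block 2230 and 2668, and 16 libraries 171 and 173. Leaving out each library in turn, with and without the block, gave 0 to 311 genes with a higher and 0 to 470 with a lower response in UACC62R, 65 to 1273 higher and 33 to 1234 lower in UACC62P, and 418 to 2044 higher and 469 to 2430 lower in UACC62R. The lowest counts came without UACC62P at 24 h replicate 1 for the line difference and for UACC62P, and without UACC62R at 0 h replicate 2 for UACC62R. A lone library was given the spread of the other groups. With 2 libraries a group, a line difference of the size found for many list members did not pass without the block, and genes of few reads, such as ANKRD1 and TAGLN, gave standard errors too wide to read.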
